A study of Mus musculus with 6 samples.

Results

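The voltage-gated and potassium channel genes are those whose symbol begins with Kcn, Scn and a digit, Cacn, Hcn or Clcn. The rule took every probe set that the platform annotation assigns to a single gene of that kind: 88 probe sets for 68 genes, of 8252 genes with a single symbol on the array. They comprise 42 potassium channel genes, 6 sodium channel genes, 12 calcium channel genes, 2 genes of the hyperpolarization-activated (HCN) channels and 6 of the ClC chloride channels and transporters. Each gene was represented by its brightest probe set, and 42 of the 68 had a mean signal over all arrays high enough to be tested (at least 134.7 signal units). The other 26 were dimmer and are described without a test.

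The arrays hold RNA from visual cortex of wild-type C57Bl6 mice that lost an eye (monocular enucleation) as adults, at postnatal day 100, and were killed 4 days later. Most optic nerve fibres of the mouse cross the midline, so the deprived cortex is that contralateral to the removed eye and the non-deprived cortex is the ipsilateral one, and both groups come from enucleated wild-type animals with no genetic change. There were 3 arrays of deprived and 3 of non-deprived cortex; the labels name 4 enucleated mice and pooled samples but do not give the make-up of a pool, so every p-value here reflects just the array-to-array spread, which may be technical, and the number of arrays limits the precision. No cortex of an animal with both eyes is among the samples.

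Voltage-gated channels open when the membrane potential changes. Sodium channels carry the upstroke of the action potential, calcium channels couple depolarization to transmitter release and to signalling in the cell, and voltage-gated potassium channels end the spike and set firing patterns. Inward rectifier and tandem pore domain potassium channels hold the resting potential, calcium-activated ones produce afterhyperpolarizations, HCN channels pass an inward current on hyperpolarization, and ClC proteins move chloride across the plasma membrane or across endosomal and lysosomal membranes. Neurons can adjust the transcription of such genes when their input changes, and the comparison asks whether the channel genes of adult cortex differ between the hemispheres.

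No channel gene passed the threshold of an adjusted p under 0.05. By limma, with adjustment over all 7453 probe sets tested, 0 of the 42 tested channel genes passed, while 0.195% of all 5653 tested genes did. Of the probe sets, 0.161% passed with a lower and 0.0134% with a higher mean in deprived cortex. Of the channel genes, 4 had an unadjusted p under 0.05, which is 9.52% against 5.18% of all tested genes. They were the A-type potassium channel gene Kcnd3, the small-conductance calcium-activated potassium channel gene Kcnn1 and the calcium channel subunit gene Cacna2d3, with lower means in deprived cortex (3 genes, against 2.44% of all tested genes), and the inward rectifier gene Kcnj4, with a higher mean (1 gene, against 2.74%). Their smallest adjusted p was 0.43. With the replicate number as a block, Kcnh1 and Clcn5 joined these 4, so that 6 of 42 (14.3%) had an unadjusted p under 0.05, against 5.4% of all tested genes. Among the channel genes 22 had a lower and 20 a higher mean in deprived cortex. Their median log2 change, deprived minus non-deprived on log2(signal + 16), was -0.02, beside 0.01 for all tested genes, and the median size of the change was 0.13 in both. Over all 68 channel genes, with the dim ones included, the median was -0.04.

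The 95% interval of the log2 change lay within a 2-fold change either way for 34 of the 42 tested genes and within a 1.5-fold change for 22. The median SD between arrays of a group was 0.22 on the log2 scale for the tested channel genes and 0.20 for all tested genes, at median signals of 716 and 532. As a check on the labels, the activity-induced transcription factor genes Fos and Egr1 fell in deprived cortex in the same fit, from 2946 ± 236 to 703 ± 87.7 and from 6248 ± 326 to 2846 ± 211 signal units (mean ± SD, n = 3). MAS5 signal is an arbitrary brightness unit and is not compared between genes here.

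**Figure D1:**
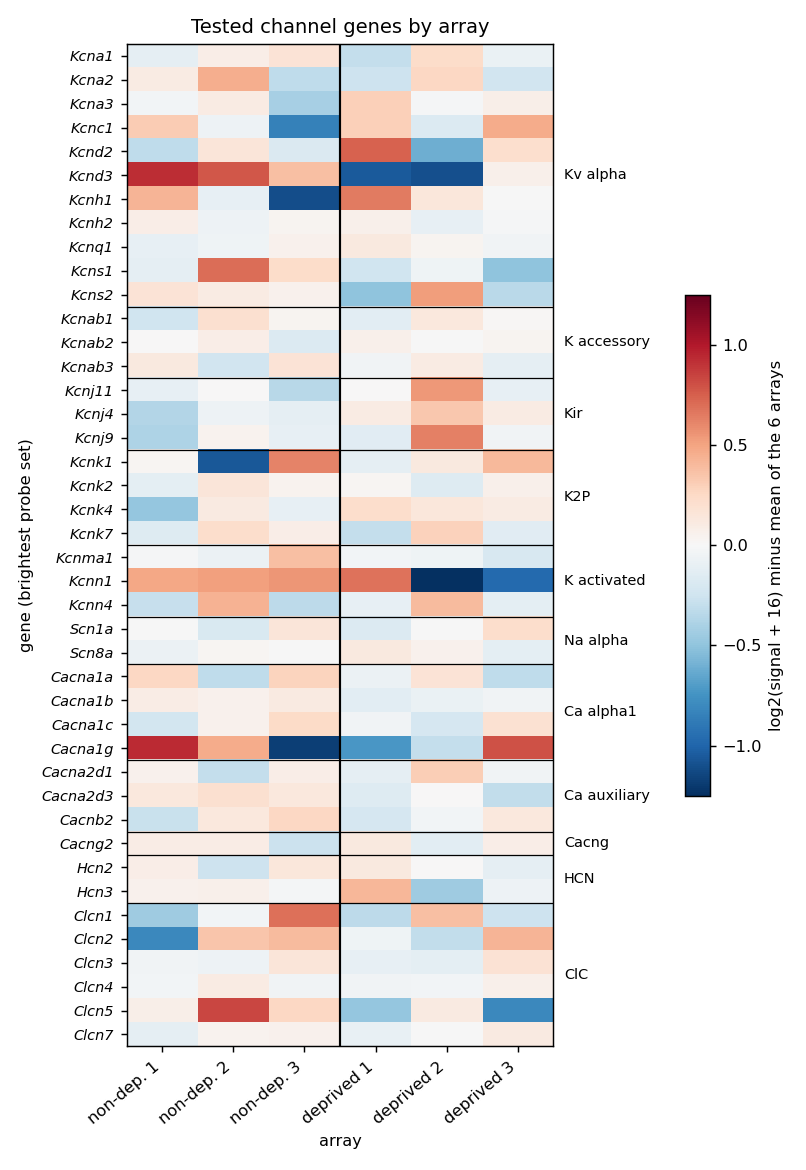
Each row is a tested channel gene, grouped by channel class, and each column an array; colour is log2(signal + 16) minus the gene's mean over the 6 arrays (red above, blue below). Kcnd3 is red in the non-deprived arrays and blue or near white in the deprived ones, Kcnn1 is blue in deprived replicates 2 and 3 only, and most other rows are pale and show no block by group.

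**Figure D2:**
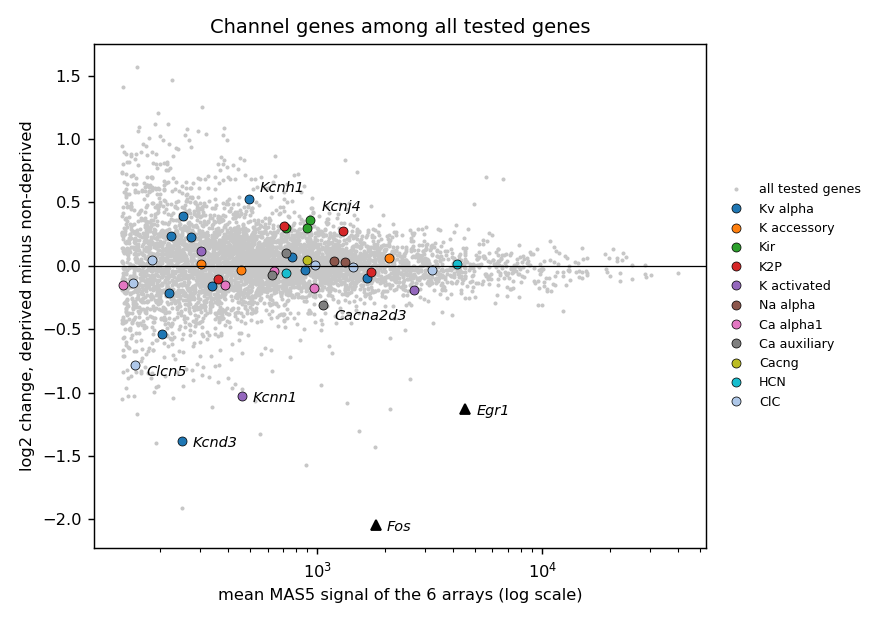
The log2 change of each gene (deprived minus non-deprived) is plotted against its mean signal on a log axis; grey dots are the 5653 tested genes, coloured circles the 42 tested channel genes by class, triangles Fos and Egr1. Most channel genes lie in the band of the other genes, with Kcnd3 and Kcnn1 below it.

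The arrays of the groups did not overlap for 4 of the 42 tested channel genes, 9.52% against 10.4% of all tested genes. Kcnd3, Cacna2d3 and the N-type calcium channel gene Cacna1b were lower in every deprived array (3 of 42, 7.14%, against 4.67% of all tested genes), and Kcnj4 was higher in every deprived array (1 of 42, 2.38%, against 5.77%). The sequences before their RefSeq transcription starts (250 bases, GRCm38.p6) are given here because these 4 are the tested genes whose arrays separated by group. Capitals mark matches to GCGNGGGCG, the motif of Egr factors, and the part of this motif in any difference was not tested. The windows are chr3:105451640-105451889 (+ strand), chr15:79505242-79505491 (- strand), chr14:29721865-29722114 (- strand) and chr2:24763153-24763402 (- strand).
Kcnd3: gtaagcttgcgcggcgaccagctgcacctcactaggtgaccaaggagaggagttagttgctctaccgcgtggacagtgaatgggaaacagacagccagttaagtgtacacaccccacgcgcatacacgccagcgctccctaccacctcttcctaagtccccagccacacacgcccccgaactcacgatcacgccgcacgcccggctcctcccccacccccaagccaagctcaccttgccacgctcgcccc
Kcnj4: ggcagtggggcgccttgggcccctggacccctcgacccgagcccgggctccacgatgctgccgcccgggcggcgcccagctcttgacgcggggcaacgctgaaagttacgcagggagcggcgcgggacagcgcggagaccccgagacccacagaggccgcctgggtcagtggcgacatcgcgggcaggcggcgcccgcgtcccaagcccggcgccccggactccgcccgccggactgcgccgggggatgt
Cacna2d3: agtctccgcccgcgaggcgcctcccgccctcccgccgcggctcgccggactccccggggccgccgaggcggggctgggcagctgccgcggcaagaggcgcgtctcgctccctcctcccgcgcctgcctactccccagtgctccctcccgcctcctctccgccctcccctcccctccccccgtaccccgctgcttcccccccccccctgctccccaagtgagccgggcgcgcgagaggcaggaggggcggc
Cacna1b: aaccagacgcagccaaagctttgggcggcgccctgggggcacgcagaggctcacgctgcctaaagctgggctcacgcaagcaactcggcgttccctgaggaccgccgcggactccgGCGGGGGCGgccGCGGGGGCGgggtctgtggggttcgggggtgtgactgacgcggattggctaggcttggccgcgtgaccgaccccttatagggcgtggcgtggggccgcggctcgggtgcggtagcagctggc
The window of Cacna1b held 2 matches, which begin 134 and 122 bases before the start, and those of Kcnd3, Kcnj4 and Cacna2d3 held none. RefSeq windows were at hand for 53 of the 68 genes (70 windows). Of these, 7 windows (10.0%) held GCGNGGGCG on either strand, beside 4.70% of all 32851 windows; they belong to Cacna1b, Cacna1c, Cacna2d1, Hcn2, Kcnk2, Scn7a and Scn8a. The motif is rich in G and C, and the median G and C content was 58.8% in the channel gene windows and 52.4% in all windows. TGANTCA, the motif of Fos and Jun dimers, stood in 1 window (Kcnk2; 1.43% against 6.75% of all), and TGACGTCA, that of CREB, in 1 (Clcn4; 1.43% against 1.55%). No motif contains another, and a match is a description of letters, not a site of binding.

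Among the pore-forming subunits of voltage-gated potassium channels, 11 of 16 genes were tested; 6 had a lower and 5 a higher mean in deprived cortex, with a median log2 change of -0.03, or -0.13 over all 16; with 1 array left out the median of the 11 ranged from -0.0381 to 0.0294, the highest without non-deprived replicate 2. Kcnd3, which encodes a subunit of the transient A-type current that delays firing, read 422, 379 and 283 in the non-deprived arrays and 95.2, 91.9 and 225 in the deprived arrays. The groups did not overlap, and deprived replicate 3 stood nearer to the non-deprived arrays than the other deprived arrays did. The mean was 361 ± 71.2 in non-deprived and 137 ± 75.9 in deprived cortex, a 2.63-fold lower signal (log2 change -1.39, SE 0.34, 95% interval -2.14 to -0.63, limma adjusted p = 0.43, unadjusted p = 0.0023). The adjusted p ranged from 0.11 to 0.94 over the alternatives, and the unadjusted p was under 0.05 in all 15 of those that could be run. Without deprived replicate 3 the log2 change was -1.77 (adjusted p = 0.11). The deprived mean lies close to the limit of 134.7, where background can make up part of a signal, and the size of the difference is uncertain to that extent. In pieces of tissue, fewer cells of a type and less RNA per cell cannot be told apart.

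Kcnd2, the A-type partner of Kcnd3, did not show the difference. Its brightest probe set read 205, 291 and 227 in non-deprived and 444, 165 and 303 in deprived arrays, which overlapped (log2 change 0.23, SE 0.32, limma adjusted p = 0.97). On its dimmer tested probe set the log2 change was -0.24 (SE 0.31), so the direction of Kcnd2 was not settled. The remaining gene of this family, Kcnd1, was dim, with signals from 45.9 to 184. The difference between Kcnd3 and Kcnd2 was not tested.

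Kcns1 encodes a modulatory subunit that forms no channel by itself. It read 180, 329 and 232 in non-deprived and 162, 188 and 133 in deprived arrays, with non-deprived replicate 1 below deprived replicate 2. Its mean was 1.53-fold lower in deprived cortex (log2 change -0.54, SE 0.28, limma adjusted p = 0.97), and the log2 change was -0.33 without non-deprived replicate 2. Kcns2, its close relative, read 230.2 ± 10.5 and 207 ± 91.2. The Shaker-type genes Kcna1 and Kcna2, whose products lie in axons, read 1713 ± 167 and 361 ± 98.4 in non-deprived and 1614 ± 304 and 319 ± 71.3 in deprived cortex. For Kcna1 the 95% interval of the log2 change was -0.42 to 0.22. Kcna3 had a log2 change of 0.24 (SE 0.24).

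Kcnc1, which encodes a fast delayed rectifier of fast-spiking interneurons, read 303, 229 and 127 in non-deprived and 299, 211 and 338 in deprived arrays. The groups overlapped (log2 change 0.40, SE 0.32, limma adjusted p = 0.97). The ether-a-go-go genes differed in precision. Kcnh1 read 625, 431 and 206 in non-deprived and 733, 512 and 463 in deprived arrays (log2 change 0.52, SE 0.34), while Kcnh2 read 893 ± 49.1 and 871 ± 51.1, with a 95% interval of -0.29 to 0.23. Kcnq1, best known as a heart and epithelial potassium channel, read 751 ± 44.4 and 790.1 ± 47.8 on an _r probe set, a design that meets fewer constraints; its standard probe set was dim, with a mean of 40.8, so the brighter signal is uncertain.

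Accessory subunits of potassium channels showed small differences. The Kcnab genes encode cytoplasmic beta subunits of Shaker-type channels. Kcnab2 read 2087, 2208 and 1848 in non-deprived and 2179, 2072 and 2139 in deprived arrays, which overlapped (log2 change 0.06, 95% interval -0.16 to 0.28). On its other tested probe set, an _f design, the log2 change was -0.11 (SE 0.10) and the arrays did not overlap. Kcnab1 and Kcnab3 had log2 changes of 0.01 (SE 0.19) and -0.04 (SE 0.16). For each of the 3 genes the interval excluded a 1.5-fold change.

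**Figure D3:**
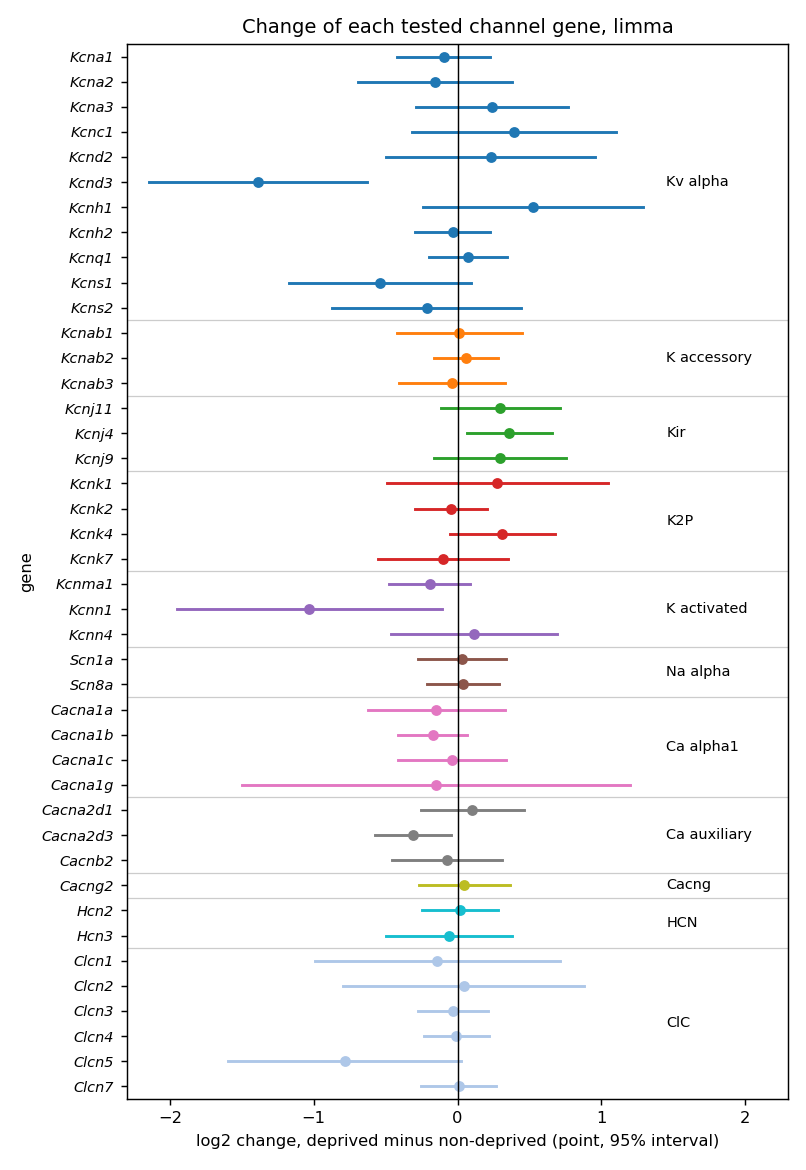
Points are the log2 change of each tested channel gene (deprived minus non-deprived) and lines its unadjusted 95% interval from limma, grouped and coloured by channel class. The intervals of Kcnd3, Kcnj4, Kcnn1 and Cacna2d3 exclude 0 without adjustment for the number of genes; the intervals of Cacna1g, Clcn1 and Clcn2, with low signals, are among the wide ones.

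All 3 tested inward rectifier genes, of 11, had a higher mean in deprived cortex, with a median log2 change of 0.30. Kcnj4, a strong inward rectifier that clamps the resting potential near that of potassium, read 712, 878 and 850.1 in non-deprived and 990 (deprived replicate 1), 1168 and 987 in deprived arrays. Every deprived array lay above every non-deprived one. The mean was 813 ± 88.9 and 1048 ± 103, 1.29-fold higher (log2 change 0.36, SE 0.13, 95% interval 0.07 to 0.66, limma adjusted p = 0.95, unadjusted p = 0.022). Without deprived replicate 2 the log2 change was 0.28 and the unadjusted p 0.082, and without non-deprived replicate 1 they were 0.27 and 0.077.

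Kcnj11, the pore subunit of the ATP-sensitive potassium channel, read 660, 712 and 557 in non-deprived and 712, 1045 and 662 in deprived arrays. Kcnj9, a subunit of the G protein-gated inward rectifier, read 667, 904 and 818 in non-deprived and 794, 1364 and 851 in deprived arrays. Both overlapped between groups, with log2 changes of 0.30 (SE 0.18) and 0.30 (SE 0.21). Deprived replicate 2 was the highest array for Kcnj4, Kcnj11 and Kcnj9, and without it the median of these 3 genes was 0.10. For Kcnj9, a dimmer _r probe set gave -0.04 (SE 0.25). Over all 11 inward rectifier genes, dim ones included, the median was 0.15.

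Of the tandem pore domain genes, 4 of 5 were tested, with a median of 0.11, or -0.05 over all 5 with the dim Kcnk3. Without non-deprived replicate 2 the median of the 4 was -0.0012, and without any other single array it was 0.0129 to 0.152. Kcnk4, a mechanosensitive and lipid-sensitive leak channel gene, read 497, 762 and 655 in non-deprived and 820.3, 776 and 755 in deprived arrays. Non-deprived replicate 2 lay just above deprived replicate 3 (log2 change 0.31, SE 0.16, limma adjusted p = 0.97), and the log2 change was 0.15 without non-deprived replicate 1. Kcnk2, a related mechanosensitive leak channel gene, read 1751 ± 164 and 1692 ± 139, with a 95% interval of -0.30 to 0.20. Kcnk1 varied more within a group than the other 3 tested, with 1248, 581 and 1887 in the non-deprived arrays and 1133, 1333 and 1628 in the deprived ones (log2 change 0.28, SE 0.34). Kcnk7 had a log2 change of -0.10 (SE 0.20).

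Kcnma1, Kcnmb1, Kcnn1, Kcnn4 and Kcnu1 were grouped by symbol with the calcium-activated potassium channels. Of these 5 genes 3 were tested, with a median of -0.19. Without non-deprived replicate 3 the median was -0.05, and among the top 40% of probe sets by signal it was -0.61. Kcnn1, a small-conductance channel gene whose product contributes to the afterhyperpolarization, read 574, 583 and 599.5 in non-deprived arrays and 657, 161 and 199 in deprived arrays. Deprived replicate 1 was the highest of the 6 arrays, and deprived replicates 2 and 3 were the lowest. With all arrays the log2 change was -1.03 (SE 0.41, limma adjusted p = 0.95, unadjusted p = 0.032). Without deprived replicate 1 it was -1.63 with an adjusted p of 0.015, the only pass of a channel gene in any alternative, in a fit where 0.121% of all probe sets passed. Without deprived replicate 2 it was -0.66 and without deprived replicate 3 it was -0.80. The call thus depends on a single array.

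Kcnma1, the large-conductance calcium-activated channel gene, read 2626, 2534 and 3462 in non-deprived and 2597, 2555 and 2318 in deprived arrays. The groups overlapped (log2 change -0.19, SE 0.13, limma adjusted p = 0.97), and non-deprived replicate 3 was the highest; leaving it out gave a log2 change of -0.05. Kcnn4, an intermediate-conductance channel gene, had a log2 change of 0.11 (SE 0.26).

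**Figure D4:**
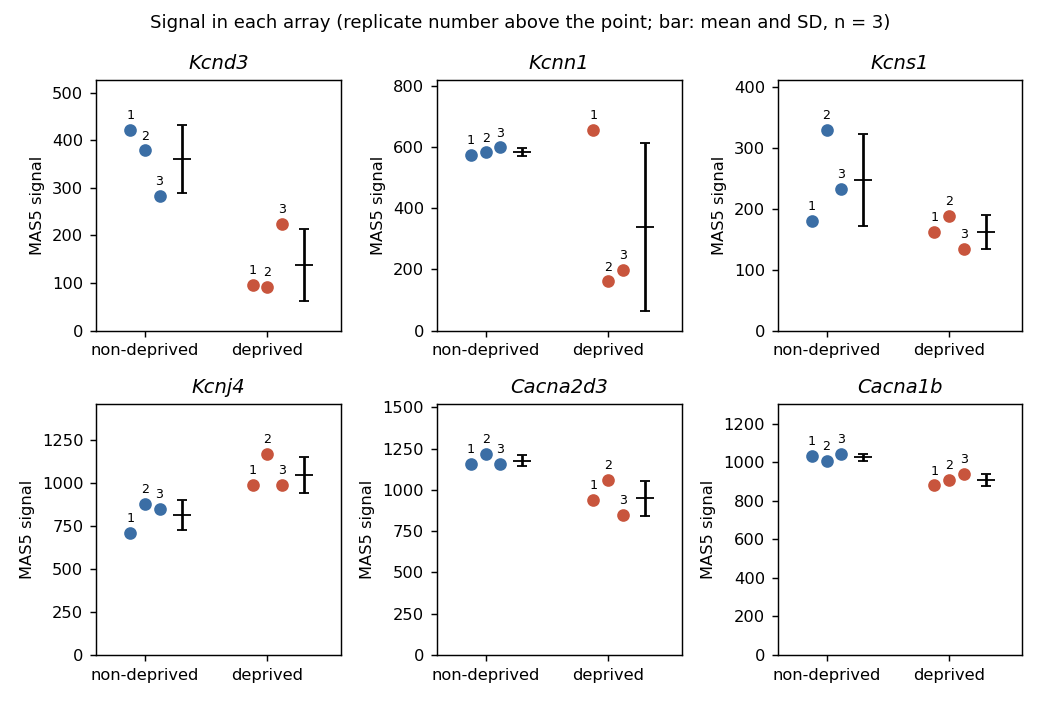
Points are the MAS5 signal of each array on a linear axis from 0, with the replicate number above, and bars the mean and SD of each group (n = 3). The groups do not overlap for Kcnd3, Kcnj4, Cacna2d3 and Cacna1b; in Kcnn1, deprived replicate 1 at 657 lies apart from deprived replicates 2 and 3 at 161 and 199.

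Of the sodium channel genes, 2 of 6 were tested. Scn8a, whose product is concentrated at the axon initial segment, read 1116, 1199.9 and 1177 in non-deprived and 1287, 1225 and 1078 in deprived arrays. Scn1a, prominent in fast-spiking interneurons, read 1317, 1159.8 and 1471 in non-deprived and 1178, 1317 and 1545 in deprived arrays. In both genes the groups overlapped, and the 95% intervals of the log2 change were -0.22 to 0.29 and -0.27 to 0.33. For Scn1a a second probe set gave 0.10 (SE 0.15). These intervals exclude a 1.5-fold change in either direction for both genes.

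The pore-forming calcium channel genes had 4 of 7 members tested, all with a lower mean in deprived cortex (median -0.15, or -0.09 without deprived replicate 1). Of all tested genes 47.4% had a lower mean. The dim members did not share a direction, with log2 changes of 0.12 (Cacna1e), 0.62 (Cacna1h) and -1.18 (Cacna1s). Cacna1b, the N-type channel of presynaptic terminals, read 1030.3, 1005 and 1041 in non-deprived and 879, 907 and 937 in deprived arrays. The groups did not overlap, and the mean was 1.13-fold lower (1025 ± 18.8 and 908 ± 28.8; log2 change -0.17, SE 0.11, 95% interval -0.41 to 0.07, limma adjusted p = 0.97). limma moderates a gene's own spread towards that of genes of similar signal, which is wider than that of Cacna1b. Cacna1a, the P/Q-type channel of presynaptic terminals, read 462, 305 and 469 in non-deprived and 363, 432 and 305 in deprived arrays (log2 change -0.15, SE 0.21). Cacna1c, an L-type channel that couples activity to transcription, read 653 ± 109 and 634 ± 91.6 (log2 change -0.04, SE 0.17). Cacna1g, a T-type channel typical of thalamic relay neurons, had signals from 43.1 to 239 and a log2 change of -0.15 (SE 0.60).

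Auxiliary calcium channel subunits were measured for 5 genes, of which 4 were tested. Cacna2d3, an alpha2delta subunit that promotes surface expression of calcium channels, read 1157, 1216 and 1156 in non-deprived and 938, 1059 and 850.1 in deprived arrays. Every deprived array lay below every non-deprived one. The mean went from 1176 ± 34.4 to 949 ± 105, 1.24-fold lower (log2 change -0.31, SE 0.12, 95% interval -0.58 to -0.04, limma adjusted p = 0.95, unadjusted p = 0.026). Without deprived replicate 3 the log2 change was -0.24 and the unadjusted p 0.10, without non-deprived replicate 2 they were -0.29 and 0.076, and without deprived replicate 1 they were -0.31 and 0.062. Cacna2d1, another alpha2delta gene, had a log2 change of 0.10 (SE 0.16), and the difference between both genes was not tested. Cacnb2, a cytoplasmic beta subunit, read 648 ± 122 and 610 ± 73.2. Cacng2, or stargazin, an auxiliary subunit of AMPA-type glutamate receptors, read 883 ± 124 and 910.2 ± 83.5 (95% interval -0.27 to 0.36).

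The HCN genes Hcn2 and Hcn3 were tested. Hcn2 read 4393, 3462 and 4576 in non-deprived and 4508, 4164 and 3833 in deprived arrays on an _r probe set, and the groups overlapped (log2 change 0.02, 95% interval -0.25 to 0.28). Its other probe set gave -0.05 (SE 0.12), with an interval of -0.33 to 0.22. Hcn3 read 737, 742 and 699.9 in non-deprived and 953, 519.9 and 679 in deprived arrays; the deprived arrays lay on both sides of the non-deprived ones (log2 change -0.06, SE 0.20).

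All 6 ClC genes were tested, with a median log2 change of -0.02, which was -0.20 without non-deprived replicate 1 and 0.0363 without non-deprived replicate 3. Clcn4 and Clcn7, which encode chloride-proton exchangers of endosomes and lysosomes, had log2 changes of -0.01 (SE 0.10) and 0.01 (SE 0.12). Clcn3, an exchanger of endosomes and synaptic vesicles, has 4 tested probe sets. The brightest read 3250.4 ± 277 and 3189 ± 388 (log2 change -0.03, SE 0.11), and the others had log2 changes of 0.07, 0.10 and 0.48 (SE 0.13, 0.15 and 0.22). On the last of these, the non-deprived arrays read 888, 658 and 428 and the deprived arrays 859, 889.9 and 913, so that non-deprived replicates 2 and 3 were the lowest of the 6.

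Clcn5, an exchanger of the endocytic pathway, read 153, 270.3 and 176 in non-deprived and 98.5, 157 and 75.5 in deprived arrays on its brightest probe set, an _r design. Deprived replicate 2 lay above non-deprived replicate 1 (log2 change -0.78, SE 0.36, limma adjusted p = 0.95). Its other probe set, of similar signal, gave -0.05 (SE 0.36), so its probe sets shared the sign but differed in size by 0.73 on the log2 scale. The deprived mean, 110.4, was under the signal limit. The low-signal genes Clcn1, known from skeletal muscle, and Clcn2, a plasma membrane chloride channel, had log2 changes of -0.14 (SE 0.38) and 0.04 (SE 0.37).

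**Figure D5:**
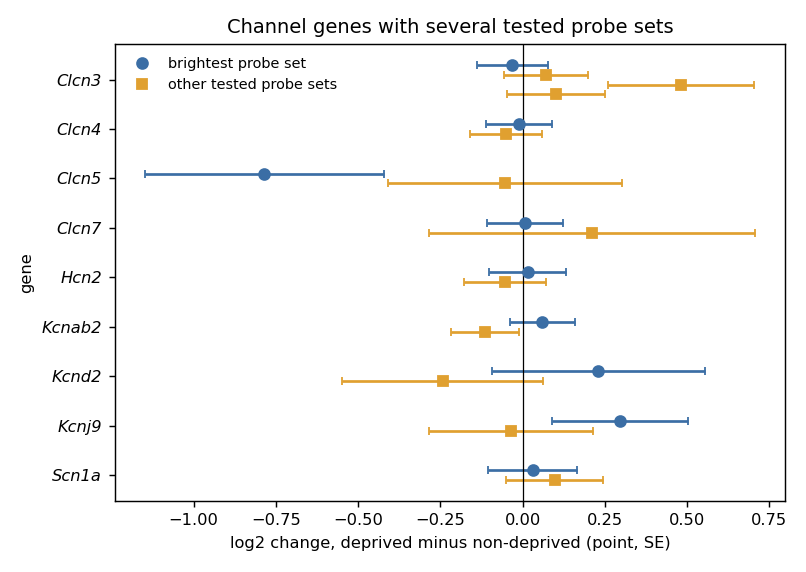
For the 9 channel genes with several tested probe sets, points are the log2 change of each probe set (deprived minus non-deprived) and lines its SE; blue circles are the brightest probe set and orange squares the others. In 5 of the 9 genes the probe sets lie on both sides of 0, and the widest spans are those of Clcn5 (0.73) and Clcn3 (0.51).

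The 26 dim genes had mean signals from 12.7 (Kcnj2) to 114.5 (Cacna1e) and may hold little more than background. They are Kcna4, Kcna5, Kcna6, Kcna7 and Kcnd1 of the voltage-gated potassium channels; Kcne1 and Kcne1l of the accessory subunits; Kcnj1, Kcnj2, Kcnj3, Kcnj5, Kcnj6, Kcnj8, Kcnj12 and Kcnj15 of the inward rectifiers; Kcnk3, Kcnmb1 and Kcnu1; Scn3a, Scn7a, Scn9a and Scn10a; and Cacna1e, Cacna1h, Cacna1s and Cacng1. Several of them have their known roles elsewhere, such as Scn10a in sensory neurons and Cacna1s and Cacng1 in skeletal muscle. The arrays did not overlap for 3 lower (11.5% of the 26, against 6.39% of all dim genes) and 2 higher genes (7.69%, against 4.00%).

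Cacna1s read 136, 113 and 161 in non-deprived and 52.0, 45.0 and 55.4 in deprived arrays, with all deprived arrays below; with no filter on signal it had a log2 change of -1.18 (limma adjusted p = 0.71). Kcnj6, a G protein-gated inward rectifier gene, read 114, 132 and 176 in non-deprived and 79.9, 85.8 and 92.0 in deprived arrays (log2 change -0.60, limma adjusted p = 0.96 in that fit). On its dimmer probe set the arrays overlapped, at 62.6, 24.5 and 115 in non-deprived and 75.8, 35.1 and 16.4 in deprived arrays (log2 change -0.49). Of the same channel family, the dim Kcnj3 and Kcnj5 had log2 changes of -0.49 and -0.12, with overlapping arrays. The tested Kcnj9 had 0.30 on its brightest probe set and -0.04 on the other, so its direction was not settled. Kcna7 was lower, and Scn9a and Cacna1h higher, in every deprived array, with group means of at most 68.6. Of the tested genes only Cacna1g, at a mean of 137, lay within 10% of the limit, and it and Clcn5 had a group mean below it.

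Genes for proteins that bind, place or modify these channels, from a list of 46 of which 27 were on the array, showed no pass either. Of 23 tested, 10 had a lower and 13 a higher mean in deprived cortex, with a median log2 change of 0.02. By limma 0 had an adjusted and 0 an unadjusted p under 0.05, against 0.195% and 5.18% of all tested genes. At these shares few or no calls fall among 23 genes. Dpp6 and Dlg4 were higher in every deprived array (5.77% of all tested genes were), and Dlg1 was lower in every one (4.67%). Ank3, or ankyrin-G, which anchors sodium and potassium channels at the axon initial segment, read 2422 ± 418 and 1924 ± 226 (log2 change -0.32, SE 0.14, adjusted p = 0.95, unadjusted p = 0.051). Dpp6, an auxiliary subunit of the A-type channels that Kcnd2 and Kcnd3 form, read 1149.97 ± 120 and 1308 ± 28.8 (log2 change 0.19, SE 0.11, adjusted p = 0.97). The sodium channel modulators Fgf11, Fgf12 and Fgf13 had log2 changes of 0.14 (SE 0.16), -0.59 (SE 0.31) and -0.30 (SE 0.23).

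Cell type markers give the setting of these values. Of 9 neuron markers 8 were on the array. Of these, 6 had a lower and 2 a higher mean in deprived cortex, 1 of them with an unadjusted p under 0.05 by limma (Tubb3, on an _f probe set). Tubb3 and Nefl were lower in every deprived array, as were 4.67% of all tested genes. The summed signal of the neuron markers was 44298 to 46471 in non-deprived and 41709 to 44800 in deprived arrays. The 5 interneuron markers (Pvalb, Gad1, Gad2, Slc32a1 and Lhx6) all had lower means in deprived cortex, and their summed signal was 10677 to 11526 in non-deprived and 8749 to 10639 in deprived arrays, which did not overlap, with 0 of 5 past the adjusted threshold by limma and 1 with an unadjusted p under 0.05. The 6 astrocyte markers summed to 13928 to 14932 and 12405 to 13913, also without overlap, although 3 had a lower and 3 a higher mean. A sum is led by its brightest genes, which are Pvalb for the interneuron and Aldoc for the astrocyte markers. Pvalb, on a probe set of the _i design, read 4917 ± 269 and 4149 ± 582 (limma unadjusted p = 0.040). Aldoc read 8530 ± 546 and 7211 ± 838 (limma unadjusted p = 0.029). How often other sums of genes separate by group was not computed. Of the 3 genes listed as hippocampal markers, Neurod6 and Wfs1 were tested, and both had a higher mean in deprived cortex (median log2 change 0.45). For Wfs1 the unadjusted p by limma was under 0.05. The dim Prox1 went the other way, with a log2 change of -0.45 and no test. Whether these genes mark hippocampal tissue in these samples was not tested. The 3 summed to 1002 to 1505 and 1422 to 2072, a sum led by Wfs1, while 4 thalamic markers summed to 2738 to 3476 and 2512 to 2944. Of the tested oligodendrocyte markers 1 had a lower and 3 a higher mean (median log2 change 0.10), and of the microglia markers 1 and 4 (0.06). Of the endothelial and mural markers 3 had a lower and 1 a higher mean (-0.26). The 1 tested marker of ependyma and choroid had a higher mean (0.20). No gene of these sets had an unadjusted p under 0.05 by limma. Sox10, Ctss and Cldn5 were higher in every deprived array, as were 5.77% of all tested genes. No listed marker on the array was at 0 in all arrays. The part of these levels in the differences of Kcnd3, Kcnn1, Cacna2d3 and Kcnj4 was not tested. The control probe set for 18S ribosomal RNA (3′ end) was brightest on non-deprived replicate 3, at 2689, against 661 to 981 elsewhere. The 5′ and middle probe sets were also brightest on that array, at 1978 and 586. Deprived replicate 2 came next on both, at 892 and 298. Without non-deprived replicate 3, Kcnd3, Cacna2d3, Kcnn1 and Kcnj4 had log2 changes of -1.54, -0.32, -1.01 and 0.39.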

How the data were processed

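The deposited table holds MAS5 signal intensity on a linear scale for 12488 probe sets and 6 arrays; the submitters' processing notes name MAS5, and its version and settings are not given in the sources used here. Every array already had a 2% trimmed mean of 500.3, so values were used as deposited; such scaling hides a change in total mRNA. Control probe sets (66) were set aside, and the top 60% by mean signal over all arrays (7453 probe sets, at least 134.7) were tested on log2(signal + 16), which shrinks differences of low signals, with limma 3.58.1 in R 4.3.3 (eBayes with intensity trend, group as the only term, two-sided, Benjamini-Hochberg adjustment, threshold 0.05). The fit was run on simulated data with planted changes larger than that of any tested channel gene, which does not show how well smaller changes are found. Gene names come from the platform annotation (10855 probe sets with 1 symbol, 396 with several, 1237 with none; 10839 matched by Entrez ID to RefSeq, no symbol changed); promoter sequences are RefSeq's.

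The members, classes and lists were chosen with earlier results of these data known, so no p adjusted over the list is given. Every member may be named; full values go to the brightest tested gene and the 2 with the smallest p in each class, and to non-overlapping genes with a log2 change of at least 0.5. Alternatives were quantile normalization, median centring, pseudocounts of 1 and 64, no filter, the top 40%, a replicate block, each array left out, no intensity trend, averaging over the probe sets of a gene and a threshold of 0.10. Fits that leave out probe sets of the _f, _r and _i designs, and all alternatives for non-overlapping genes and partner genes, were added after seeing the data.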

Additional observations from a re-analysis of the deposited data

How the results depend on the processing

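No channel gene passed the adjusted threshold in any alternative except Kcnn1 without deprived replicate 1 (log2 change -1.63, adjusted p = 0.015). Leaving out each array in turn, the number of channel genes past it ranged from 0 to 1. The number with an unadjusted p under 0.05 ranged from 2 to 4 of 42 (4 with all arrays). In these fits 4.26% to 7.85% of all tested genes had such a p. The number with non-overlapping arrays ranged from 5 to 11 (4 with all arrays). Fewer arrays overlap less by construction, and 18.6% to 24.9% of all tested genes then did not overlap. The median log2 change ranged from -0.0429 to 0.0343, and the number of all probe sets past the threshold from 7 to 10 (13 with all arrays). With no filter on signal 9 of 68 channel genes (13.2%) had non-overlapping arrays, against 10.4% of all genes. Of 24 genes followed through 16 alternatives, 11 kept their direction in all that could be run, among them Kcnd3, Kcnn1, Kcnj4, Cacna2d3 and Cacna1b. Kcnd3, Kcns1, Clcn1 and Clcn5 had no value among the top 40% by signal. Where arrays do not overlap, as for Kcnd3, Kcnj4, Cacna2d3 and Cacna1b, leaving out 1 array cannot change the sign. The filters, the replicate block and the intensity trend leave the log2 change of a probe set as it is. The kept direction of these 4 genes was thus fixed in advance in most alternatives and does not show stability. The remaining 13 of the 24 genes changed sign at least once. With 1 array left out the log2 change ranged from -0.0218 to 0.18 for Cacna2d1, -0.0721 to 0.12 for Cacng2, -0.40 to 0.17 for Clcn1, -0.13 to 0.0382 for Clcn3, -0.11 to 0.0924 for Hcn2, -0.28 to 0.15 for Hcn3, -0.24 to 0.0252 for Kcna1, -0.0115 to 0.12 for Kcnab2, -0.16 to 0.0376 for Kcnab3, -0.18 to 0.65 for Kcnk1, -0.12 to 0.0193 for Kcnk2, -0.0716 to 0.12 for Scn1a and -0.018 to 0.11 for Scn8a. Averaging a gene's probe sets gave 0.16 for Clcn3, -0.0184 for Hcn2 and -0.027 for Kcnab2, and leaving out probe sets of the _f, _r and _i designs gave -0.0526 for Hcn2 and -0.05 for Clcn5; the cause was not tested. With the replicate number as a block, 0 channel genes and 10 probe sets passed and 6 channel genes (14.3%, against 5.4% of all tested genes) had an unadjusted p under 0.05. The deviations of same-numbered arrays from their group means correlated at 0.00297, 0.049 and -0.0201. Deprived replicates 1, 2 and 3 each correlated highest with a non-deprived array of another number (0.0336, 0.0518 and 0.102). With 3 arrays per group and pools of unknown make-up, these values cannot tell whether same-numbered arrays were paired.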
